A study of Mus musculus with 16 samples.

Results

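Ovaries labelled as knocked out for both Runx1 and Foxl2 were compared with Control ovaries at birth, to ask which genes differ when these transcription factors of the ovarian supporting cells are removed together. The comparison used 8 of the 16 arrays of the series, 4 labelled double knockout (DKO) and 4 Control, 1 newborn (P0) ovary per array, and took in 18193 genes. DKO ovaries were Runx1-/f Foxl2-/- Sf1-Cre+/Tg: 1 Runx1 allele was null, the other was floxed and exposed to Cre, and no functional Foxl2 allele remained. Control ovaries were Runx1+/f Foxl2+/+ Sf1-cre+/+, which left them with a floxed but intact Runx1 allele and no Cre transgene. The other genotypes, 4 ovaries each, were Runx1 KO, with the Runx1 alleles and Cre of the DKO but intact Foxl2 (Foxl2+/+), and Foxl2 KO, which was Foxl2-/- with the Runx1+/f alleles and lack of Cre of the Control, and they served to estimate the spread. All came from 1 cross, each ovary was dissected away from the mesonephros, and the Sf1 promoter that drives Cre is active in somatic cells of the gonad, so that germ cells and blood should keep the floxed allele. Since Cre was present in the DKO and absent from the Control ovaries, effects of the transgene and of Runx1 loss cannot be told apart.

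In the fetal gonad, bipotential supporting cells become Sertoli cells in the testis and pre-granulosa cells in the ovary. SOX9, aided by FGF9 and DMRT1, holds the Sertoli fate, and Sertoli cells then signal through secreted factors such as AMH and DHH. FOXL2 is a forkhead factor of pre-granulosa cells that represses Sertoli genes and activates ovarian ones, and RUNX1, which binds DNA with its partner CBFB, is expressed in the same cells.

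Values are linear intensities of 1 probe set per gene, scaled by the authors to the same trimmed mean in every array, with array medians of 134 to 177. Other probe sets are given for some genes only, and in some genes they differ from the one used. A gene was called at a limma adjusted p under 0.05, and folds and log2 differences are DKO against Control on the log2(intensity + 16) scale, ± the moderated standard error, n = 4 ovaries per group. The 16 keeps values near 0 from dominating and shrinks the change of dim genes. Kdm5d, a Y-linked gene that XX ovaries lack, averaged 5.34 on this scale over the 16 arrays and was taken as background after its value was seen. It was the highest of 3 measured Y-linked genes of most tissues. Other Y-linked genes read higher, with means of 8.30 for Sry, 6.43 for Orly, 6.16 for Usp9y and 5.47 for Uba1y. Signal above 5.34 is therefore no proof of a transcript. Where 1 group mean lay below this background, the fold is a bound against it and is written as "at least", which holds for this choice of background only. Precision is set by the number of arrays, with a median standard error of 0.20 for a log2 difference. Oocyte genes were well expressed in both groups (mean list level 9.56 to 10.57 in Control and 9.74 to 10.18 in DKO ovaries), as fits the labelled tissue. Erythroid genes averaged 10.33 in Control replicate 4 against 5.72 to 6.08 in the other Control and 5.74 to 6.05 in the DKO ovaries. Lymphoid and blood progenitor genes averaged 7.60 in that ovary against 5.63 to 5.96 in the other Controls, and calls or list medians that moved clearly without it are given both ways. Gene lists hold chosen genes and not whole families, and genes listed with the pre-granulosa or Sertoli genes were mostly not listed again under a pathway.

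Foxl2 read 3588, 4191, 4241 and 2774 in the Control ovaries and 569.8, 736, 839 and 661 in the DKO ovaries. Its signal was lower in every DKO ovary and fell 5.16-fold (log2 -2.37 ± 0.20, limma adjusted p = 5.55e-06), so the null genotype was visible although some signal remained. Runx1 read 2238, 2142, 2359 and 2204 in Control and 2370.3, 2111, 2227 and 2205 in DKO, and the groups overlapped (log2 -0.01 ± 0.19, limma adjusted p = 0.997). Its 6 probe sets differed by -0.15 to 0.67 on the log2 scale and none was called. The 3 brightest, with mean log2 levels of 11.03, 9.79 and 8.09, gave -0.01, -0.15 and 0.03 in DKO against -0.64, -0.66 and -0.76 in Runx1 KO, also not called. The position of these probes relative to the floxed exons is not known here, so Runx1 signal is no check of the ovaries labelled DKO. The same gene read 1701, 1221, 932 and 2127 in the Runx1 KO ovaries, which carry the same Runx1 alleles and Cre, so that 3 of those 4 lay below every DKO ovary. Whether each ovary labelled DKO had lost Runx1 cannot be settled from these values, and this holds for every direction given for DKO.

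Of the 18193 genes, 388 (2.13%) were called, 232 higher (1.28%) and 156 lower (0.857%). Col8a1, which encodes an α-chain of type VIII collagen, had the largest fall among genes above background in both groups, and the ovarian genes Nr5a2, Fst and Foxl2 fell with the steroid enzyme genes Akr1c18 and Hsd3b1. Among the genes that rose were Pla2g2f, Bcan and the Sertoli genes Dhh and Dmrt1. In all, 142 of the called rises and 95 of the called falls reached 2-fold, 14 and 19 reached 4-fold, and 7 and 9 stayed under 1.5-fold. The median called rise was 1.08 and the median called fall -1.19 on the log2 scale, beside a median of 0.04 over all genes. The 4 DKO values lay beyond the 4 Control values for 377 of the called genes, against 7.61% of all genes (4.9% above and 2.71% below), and 2250 genes had an unadjusted p under 0.05. In these bulk samples, fewer cells of a type and less RNA per cell cannot be told apart. Leaving out DKO replicate 1 lowered the count to 277.

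**Figure D1:**
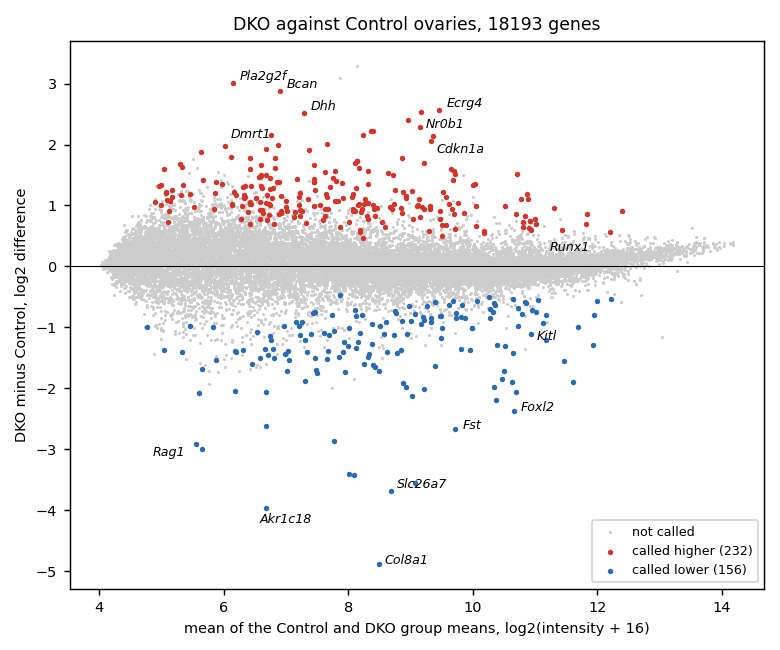
Log2 difference between DKO and Control (vertical axis) against the mean level of both groups (horizontal axis, log2(intensity + 16)), 1 point per gene. The 232 genes called higher (red) and 156 called lower (blue) spread over all levels, Col8a1 lies lowest at -4.88, and Runx1 lies at -0.01.

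The largest falls began with Col8a1, which read 1374, 2318, 1907 and 2282 in Control and 68.5, 59.2, 32.3 and 46.8 in DKO ovaries. Col8a1 was lower in every DKO ovary and fell 29.4-fold (log2 -4.88 ± 0.29, limma adjusted p = 2.75e-07). Dimmer Col8a1 probe sets gave -1.85 and -3.42. Akr1c18, whose enzyme inactivates progesterone, read 259.9, 447, 489 and 401 in Control and 29.6, 3.11, 3.52 and 10.9 in DKO, where most values were near the floor of the array. Akr1c18 was lower by at least 10-fold (fitted log2 -3.96 ± 0.31, limma adjusted p = 3.09e-06). Slc26a7, an anion transporter gene, read from 1010.2 to 1712 in the Control ovaries and from 81.0 to 123 in the DKO ovaries, a fall of 12.9-fold (log2 -3.69 ± 0.22, limma adjusted p = 2.75e-07). Thbs1, which encodes the secreted matrix protein thrombospondin 1, ran from 1574 to 2308 in the Control ovaries and from 99.9 to 205 in the DKO ovaries and fell 11.8-fold (log2 -3.56 ± 0.24, limma adjusted p = 5.82e-07). The sulfotransferase gene Chst9 ran from 584 to 1031 in the Control ovaries and from 47.6 to 84.6 in the DKO ovaries, with no overlap, and fell 10.6-fold (log2 -3.41 ± 0.21, limma adjusted p = 2.75e-07). Slco1a4, an organic anion transporter gene, left almost no signal in DKO (1.08 to 3.15, against 80.2 to 165.5 in Control) and was lower by at least 3.50-fold (fitted log2 -2.99 ± 0.19, limma adjusted p = 3.17e-07).

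Ryr2, the calcium release channel of the endoplasmic reticulum, read 918, 635, 414 and 439 in Control and 54.2, 45.6, 97.2 and 70.4 in DKO. Its groups were far apart, a fall of 7.29-fold (log2 -2.87 ± 0.34, limma adjusted p = 0.000179), and a dimmer probe set gave -2.17. Rag1, the recombinase of developing lymphocytes, read 86.2, 138, 76.2 and 179 in Control and 1.40, 1.10, 1.02 and 1.19 in DKO, so that all 4 DKO ovaries lay at the floor. It was lower by at least 3.20-fold (fitted log2 -2.92 ± 0.32, limma adjusted p = 6.65e-05), and by a fitted -2.72 without Control replicate 4, the ovary with blood genes. Together with Gfi1, which encodes a transcriptional repressor of blood cells (log2 -1.08 ± 0.23, limma adjusted p = 0.0191), it made up the members called of 22 measured lymphoid and blood progenitor genes (9.09%, beside 2.13% of all genes). Gfi1 ran from 76.9 to 209.8 in the Control ovaries and from 44.2 to 50.4 in the DKO ovaries, changed by -0.83 without Control replicate 4, and lost its call without DKO replicate 4 (limma adjusted p = 0.0586). The list's median was -0.34, and 0.24, with 1 further member called higher, without Control replicate 4. Shisa9, Fam184b, Grid1, Clstn2 and Pnliprp2 completed the falls with values of -2.62 ± 0.33, -2.12 ± 0.31, -2.06 ± 0.44, -2.02 ± 0.16 and a fitted -2.08 ± 0.22. Dimmer probe sets of Fam184b went the other way (0.54 and 1.25), and those of Shisa9 gave -1.71 and -0.22. A dimmer probe set gave -0.23 for Grid1, -1.49 for Clstn2 and -0.90 for Pnliprp2. Speer4b and Speer8-ps1, of a mouse gene family with near-identical copies whose probes may read several members, gave -2.06 ± 0.32 and -1.98 ± 0.29. Grid1 lost its call in 5 of the 16 fits that left out 1 array, all of them Control or DKO ovaries (limma adjusted p up to 0.0799).

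**Figure D2:**
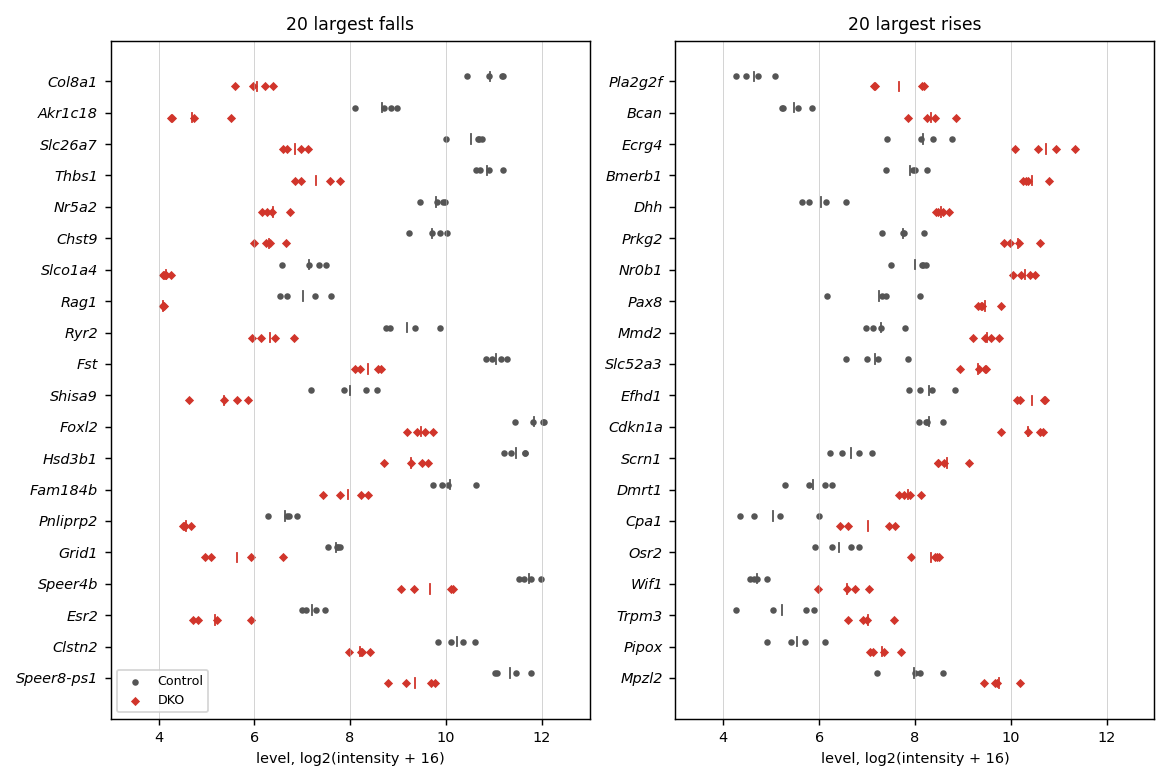
Level of the 20 called genes with the largest falls (left) and the 20 with the largest rises (right) in each ovary, as log2(intensity + 16), with grey circles for the 4 Control ovaries, red diamonds for the 4 DKO ovaries and short bars for the group means. The groups do not overlap for any gene shown, which the choice of genes required, and several genes lie near the background of 5.34 in 1 group.

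Upstream sequences of 4 called genes are shown because they hold the core letters that RUNX proteins bind. They are RefSeq sequences of GRCm38.p6, written 5′ to 3′ along the gene from 250 bases before to 50 after its annotated start, with each match in capitals.
Col8a1 (chr16:57754688-57754987, minus strand): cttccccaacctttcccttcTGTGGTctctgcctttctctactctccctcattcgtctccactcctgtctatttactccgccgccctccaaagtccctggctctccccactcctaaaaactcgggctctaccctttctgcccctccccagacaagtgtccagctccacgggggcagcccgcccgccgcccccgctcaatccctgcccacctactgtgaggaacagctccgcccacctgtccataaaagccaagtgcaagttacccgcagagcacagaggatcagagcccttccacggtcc
Rag1 (chr2:101649483-101649782, minus strand): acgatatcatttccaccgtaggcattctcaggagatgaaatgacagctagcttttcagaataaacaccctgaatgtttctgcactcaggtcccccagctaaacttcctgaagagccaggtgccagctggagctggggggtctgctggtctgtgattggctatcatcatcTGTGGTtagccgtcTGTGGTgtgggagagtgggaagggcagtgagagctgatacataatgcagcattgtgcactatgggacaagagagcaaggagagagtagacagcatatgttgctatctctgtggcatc
Esr2 (chr12:76177210-76177509, minus strand): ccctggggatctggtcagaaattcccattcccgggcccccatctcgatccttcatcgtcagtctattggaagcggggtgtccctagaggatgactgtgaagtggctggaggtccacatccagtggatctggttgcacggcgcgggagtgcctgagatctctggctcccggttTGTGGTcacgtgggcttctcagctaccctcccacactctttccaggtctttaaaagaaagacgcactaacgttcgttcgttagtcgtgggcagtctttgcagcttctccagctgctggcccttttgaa
Nr0b1 (chrX:86191525-86191824, plus strand): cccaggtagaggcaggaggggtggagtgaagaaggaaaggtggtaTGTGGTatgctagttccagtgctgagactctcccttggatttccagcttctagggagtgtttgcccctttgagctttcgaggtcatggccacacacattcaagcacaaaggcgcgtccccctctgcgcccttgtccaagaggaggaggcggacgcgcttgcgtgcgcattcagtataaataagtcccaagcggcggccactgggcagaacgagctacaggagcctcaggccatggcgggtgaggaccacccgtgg
The search was for TGTGGT on either strand (ACCACA in reverse), and the matches began 230 bases before the start in Col8a1, 81 and 67 before it in Rag1, 78 in Esr2 and 205 in Nr0b1. The same letters occurred in 13.7% of the windows of tested genes, 14.6% of the windows of genes that rose and 11.1% of those of genes that fell. The forkhead core TGTTTAC, or GTAAACA in reverse, which shares no full match with the first motif, occurred in 2.98%, 2.74% and 2.78%. Windows were given for 167 of the genes called higher and 113 of those called lower. Among the called genes described here, 92 had a window, 13 of them with a RUNX match and 2 with a forkhead match. A match is a description of letters and no evidence of binding.

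Pre-granulosa genes fell in part. Of 19 measured, 7 fell (36.8%, beside 0.857% of all genes), 0 rose and 12 did not pass, with a list median of -0.17. The median was -0.01, with 5 lower, without DKO replicate 3, and -0.03, with 1 higher and 5 lower, without Control replicate 2. It was -0.05 without Control replicate 3 and -0.06 without DKO replicate 2, and 5 also fell without DKO replicate 1. Nr5a2, an orphan nuclear receptor of granulosa cells, read 968, 994, 888 and 684 in Control and 90.6, 60.9, 55.8 and 66.4 in DKO. Nr5a2 was lower in every DKO ovary and fell 10.7-fold (log2 -3.42 ± 0.25, limma adjusted p = 1.91e-06), and its 3 dimmer probe sets gave -2.75 to -1.84. Fst, which encodes the activin antagonist follistatin, read 1814, 2452, 2256 and 1969 in Control and 259, 366, 382 and 278 in DKO. Fst fell 6.38-fold (log2 -2.67 ± 0.34, limma adjusted p = 0.000334), without overlap, and -2.45 by its other probe set. Esr2, the estrogen receptor β gene, read 161, 120.0, 141 and 111 in Control and 12.1, 45.4, 21.2 and 10.2 in DKO and was lower by at least 3.65-fold (fitted log2 -2.04 ± 0.28, limma adjusted p = 0.000565). The KIT ligand gene Kitl, by which supporting cells nourish oocytes, ran from 2177 to 3397 in the Control ovaries and from 1195 to 1565 in the DKO ovaries and fell 2.15-fold (log2 -1.10 ± 0.20, limma adjusted p = 0.00551). The remaining falls were those of Foxl2 itself, Foxp1 and Cdkn1b, of which the last 2 are described with the genes that neither single knockout changed clearly. Foxl2 was a targeted gene, and Fst and Foxp1 were singled out by the study on these arrays. The share of the list that fell is therefore not independent evidence.

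The other pre-granulosa genes did not move down as a body. Wnt4, an ovary-determining ligand gene (log2 0.79 ± 0.21, limma adjusted p = 0.0745), Rspo1, which potentiates its signal (log2 0.52 ± 0.15, limma adjusted p = 0.0911), and the AMH receptor gene Amhr2 (log2 0.52 ± 0.16, limma adjusted p = 0.113) lay above 0 without passing. Irx3 (0.38 ± 0.23), Lgr5 (0.12 ± 0.26), Bmp2 (-0.17 ± 0.27) and Gng13 (0.03 ± 0.22) were also not called.

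Sertoli genes rose, again in part. Of 25 measured, 7 rose (28%, beside 1.28% of all genes), 0 fell and 18 did not pass, with a median of 0.37. Dhh, Dmrt1, Sox9, Fgf9 and Nr5a1 among the 7 were singled out by the study on these arrays. The share of the list that rose is therefore not independent evidence. Dhh, the hedgehog ligand gene of Sertoli cells, read 39.6, 78.2, 34.1 and 55.1 in Control and 366, 342, 404 and 331 in DKO. Dhh was higher in every DKO ovary and rose 5.72-fold (log2 2.52 ± 0.22, limma adjusted p = 1.22e-05), while a dimmer probe set at a level of 5.88 gave -0.14. Dmrt1, a transcription factor gene of Sertoli and germ cells, read 61.5, 38.9, 53.9 and 22.9 in Control and 262, 224, 201 and 188 in DKO and rose 4.00-fold (log2 2.00 ± 0.24, limma adjusted p = 0.000158). Sox9, the central Sertoli factor gene, read 96.8, 129, 131 and 133 in Control and 381, 299, 321 and 405 in DKO, with a wide gap between the groups. Sox9 rose 2.65-fold (log2 1.41 ± 0.16, limma adjusted p = 0.000115), and its other probe sets gave 1.08 and 0.48. Fgf9, the growth factor gene that sustains Sox9, ran from 155 to 285 in the Control ovaries and from 374 to 446 in the DKO ovaries and rose 2.02-fold (log2 1.02 ± 0.17, limma adjusted p = 0.00385), with 0.56 from its second probe set. Mmd2 (log2 2.21 ± 0.23, limma adjusted p = 3.67e-05), Cst9 (log2 1.70 ± 0.24, limma adjusted p = 0.000807) and Nr5a1, described below, completed the genes that rose.

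Sertoli genes that did not pass included Amh (log2 0.46 ± 0.22, limma adjusted p = 0.424), whose mean lay below background in both groups. Wt1 (0.35 ± 0.12) and Gata4 (0.34 ± 0.15), which act in the supporting cells of both sexes, and the Sertoli products Clu (-0.02 ± 0.13), Inha (-0.23 ± 0.23) and Aard (0.06 ± 0.21) did not pass either. Hsd17b3, the testosterone-forming enzyme gene, stood nearest to the threshold (log2 1.22 ± 0.32, limma adjusted p = 0.0692).

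Among 32 other transcription factor genes of the gonad, 4 rose (12.5%, beside 1.28% of all genes) and 0 fell (median 0.09, and 0.21 without Control replicate 2 or DKO replicate 3). Nr0b1, an X-linked orphan receptor gene also known as Dax1, read 164, 270.0, 284 and 266 in Control and 1344, 1448, 1171 and 1041 in DKO. Nr0b1 was higher in every DKO ovary and rose 4.89-fold (log2 2.29 ± 0.19, limma adjusted p = 4.81e-06). Pax8, a paired-box gene of the nephric and reproductive ducts, read 55.7, 258, 144 and 154 in Control and 655, 622, 869 and 658 in DKO and rose 4.68-fold (log2 2.23 ± 0.35, limma adjusted p = 0.00213), with 1.30 from a second probe set. Control replicate 1 was the lowest of the Controls and DKO replicate 3 the highest of the DKO ovaries for this gene. Pax8 was the member called of 12 measured mesonephric genes (8.33%, beside 2.13% of all genes), whose median was 0.00 and whose mean level ran from 6.85 to 7.34 in Control and from 7.12 to 7.56 in DKO ovaries. Carry-over of mesonephros as a part in its rise was not tested. Osr2, a zinc finger gene of mesoderm, ran from 44.3 to 98.1 in the Control ovaries and from 226 to 347 in the DKO ovaries and rose 3.76-fold (log2 1.91 ± 0.29, limma adjusted p = 0.0017), and the homeobox gene Msx2 rose 3.01-fold (log2 1.59 ± 0.23, limma adjusted p = 0.00118). A dimmer Msx2 probe set at a level of 5.62 gave 0.006. Beside Foxl2, Runx1 and Foxp1, which were listed with the pre-granulosa genes and of which Foxl2 and Foxp1 fell, 20 RUNX and forkhead genes were measured, of which 5% were called, beside 2.13% of all genes. The corepressor gene Runx1t1 fell (log2 -0.77 ± 0.18, limma adjusted p = 0.0355), a call lost in 6 of 16 fits without 1 Control or DKO ovary (limma adjusted p up to 0.121). Cbfb (0.06 ± 0.13) and Runx3 (0.01 ± 0.39) did not pass.

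Nr5a1 and its neighbour Nr6a1 were higher together. Nr5a1, also known as Sf1, encodes the nuclear receptor that organises the gonad and its steroid synthesis, and its promoter drives the Cre transgene. Nr5a1 read 570.1, 773, 591 and 605 in Control and 1824, 1557, 1737 and 1396 in DKO and rose 2.53-fold (log2 1.34 ± 0.15, limma adjusted p = 8.63e-05), with 1.21 from a second probe set. Nr6a1, a receptor gene of germ cells whose near end lies 8.83 kb from Nr5a1, read 548, 371, 413 and 242 in Control and 576, 885, 866 and 824 in DKO and rose 2.01-fold (log2 1.01 ± 0.20, limma adjusted p = 0.0132). The next gene, the proteasome subunit gene Psmb7 at 48.7 kb, did not pass (log2 0.06 ± 0.18, limma adjusted p = 0.934), and 1 of the 10 measured neighbours was called (10%, beside 2.13% of all genes). Against the same Control arrays Nr5a1 gave 0.77 ± 0.15 in Runx1 KO and 0.38 ± 0.15 in Foxl2 KO, and Nr6a1 gave 0.92 ± 0.20 in Runx1 KO and 0.05 ± 0.20 in Foxl2 KO. Neither gene passed in Runx1 KO (limma adjusted p = 0.0718 for Nr5a1 and 0.163 for Nr6a1). DKO differed from Foxl2 KO, which lacks the Sf1-cre transgene, for Nr5a1 (limma adjusted p = 0.0215) but not past the threshold for Nr6a1 (limma adjusted p = 0.160). RNA from the transgene and from the native genes cannot be told apart here.

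**Figure D3:**
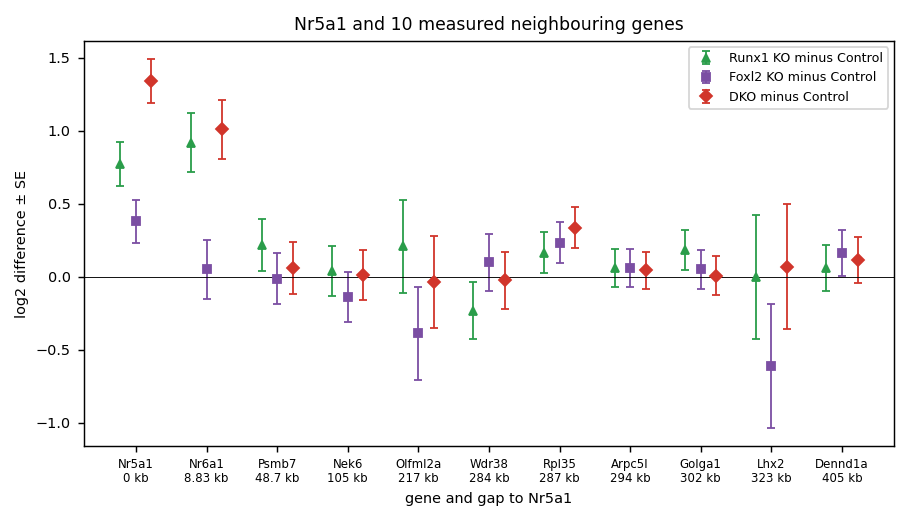
Log2 difference from Control ± standard error for Nr5a1 and its 10 measured neighbours in order of distance, for Runx1 KO (green triangles), Foxl2 KO (purple squares) and DKO (red diamonds), 4 ovaries per group. Nr5a1 and Nr6a1 lie at 1.34 and 1.01 in DKO and at 0.77 and 0.92, not called, in Runx1 KO, and the genes from Psmb7 at 48.7 kb onward lie near 0 in DKO.

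Some steroid enzyme genes fell. Of 21 measured, 4 fell (19%, beside 0.857% of all genes) and 0 rose (median -0.06, between -0.22 and -0.06 when 1 array was left out). Hsd3b1, which turns pregnenolone into progesterone, read 3217, 3179, 2606 and 2347 in Control and 402, 769, 712 and 606 in DKO. Hsd3b1 was lower in every DKO ovary and fell 4.55-fold (log2 -2.19 ± 0.20, limma adjusted p = 1.71e-05). Akr1c14, a 3α-hydroxysteroid dehydrogenase gene, ran from 4162 to 5447 in the Control ovaries and from 1347 to 1876 in the DKO ovaries and fell 2.93-fold (log2 -1.55 ± 0.16, limma adjusted p = 3.52e-05). Hsd17b7, which acts in cholesterol and estrogen synthesis, fell 2.26-fold (log2 -1.18 ± 0.22, limma adjusted p = 0.00813). Dimmer Hsd17b7 probe sets gave -1.25, -1.06 and 0.26. Akr1c18 fell as given above, and Akr1c19 of the same cluster, added after its values were seen, gave log2 -1.87 ± 0.18, limma adjusted p = 2.73e-05. The cholesterol carrier gene Star (-0.06 ± 0.21), the side-chain cleavage gene Cyp11a1 (-0.66 ± 0.25) and Cyp17a1 (0.26 ± 0.31) were not called.

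Of 7 Leydig genes, Hsd3b1 and the thrombospondin gene Thbs2 (log2 -1.37 ± 0.20, limma adjusted p = 0.000927) fell (28.6%, beside 0.857% of all genes) and the rest did not pass. Beside Esr2, counted with the pre-granulosa genes, 11 steroid receptor genes were measured, of which 9.09% were called, beside 2.13% of all genes. The mineralocorticoid receptor gene Nr3c2 fell (log2 -0.98 ± 0.22, limma adjusted p = 0.0281), a call lost in 6 of 16 fits that left out a Control or DKO ovary, and Esr1 (-0.09 ± 0.21), Pgr (0.11 ± 0.29) and Nr3c1 (-0.00 ± 0.15) did not pass. None of 24 cholesterol and fatty acid synthesis genes was called (1 rose without Control replicate 4), and the elongase gene Elovl6 stood nearest (log2 0.64 ± 0.19, limma adjusted p = 0.109).

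Prostaglandin and phospholipase genes moved both ways, 2 up and 3 down of 30 (16.7%, beside 2.13% of all genes, median -0.10). Pla2g2f, a secreted phospholipase A2 gene, read 17.9, 10.6, 6.35 and 3.31 in Control and 266, 125, 276 and 128 in DKO. It was higher by at least 4.99-fold (fitted log2 3.02 ± 0.33, limma adjusted p = 6.65e-05), with all Control ovaries near the floor. A second Pla2g2f probe set gave 0.62 only, at a mean level of 6.22 against 6.30 for the one used. Pla2g5, of the same family, rose 2.16-fold (log2 1.11 ± 0.20, limma adjusted p = 0.0067). The phospholipase receptor gene Pla2r1 fell (log2 -1.71 ± 0.40, limma adjusted p = 0.0353), a call lost in 7 of 16 fits that left out a Control or DKO ovary, and a dim probe set gave -0.01. The prostaglandin E2 receptor genes Ptger3, from 622.6 to 804 in Control and from 173 to 302 in DKO, and Ptger2 were lower by 2.69-fold (log2 -1.43 ± 0.22, limma adjusted p = 0.00173) and at least 1.62-fold (fitted log2 -1.41 ± 0.24, limma adjusted p = 0.00409). A dimmer Ptger3 probe set gave -0.43. Of 30 further genes of calcium release and exchange (median 0.20), 2 rose and 1 fell (10%, beside 2.13% of all genes). Prkg2, a cGMP-dependent kinase gene, and the calmodulin-binding gene Pcp4 rose (log2 1.72 ± 0.34, limma adjusted p = 0.0115). Calb1, which encodes the calcium buffer calbindin, gave -1.36 ± 0.33 with overlapping groups, and lost its call in 10 of 16 fits that left out 1 array.

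Ligands and antagonists of growth factor pathways followed no common direction. Of 48 activin, BMP and TGF-β genes, 2 rose and 2 fell (8.33%, beside 2.13% of all genes, median 0.00), and Fst, counted with the pre-granulosa genes, fell as well. Bmpr1b, a BMP receptor gene, ran from 287 to 462 in the Control ovaries and from 694 to 992 in the DKO ovaries and rose 2.15-fold (log2 1.10 ± 0.17, limma adjusted p = 0.00184). The ligand gene Bmp7 rose 2.02-fold (log2 1.01 ± 0.22, limma adjusted p = 0.0241), a call lost in 4 of 16 fits (without Control replicate 1 or 4, or DKO replicate 3 or 4, limma adjusted p up to 0.0893). Bmper, which encodes a secreted BMP-binding protein, fell 2.72-fold (log2 -1.44 ± 0.23, limma adjusted p = 0.0027), and Smad3, a transducer of activin and TGF-β, fell 1.99-fold (log2 -0.99 ± 0.16, limma adjusted p = 0.00213) from the high Control level of 3402 to 5549.

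Of 47 WNT genes, 2 rose and 1 fell (6.38%, beside 2.13% of all genes, median 0.16). Wif1, a secreted WNT inhibitor gene, read 7.63, 10.2, 8.84 and 14.3 in Control and 115, 46.7, 91.0 and 79.6 in DKO, higher by at least 2.37-fold (fitted log2 1.87 ± 0.19, limma adjusted p = 2.92e-05). Lef1, which binds β-catenin on DNA, rose 1.61-fold (log2 0.69 ± 0.15, limma adjusted p = 0.0217), a call lost without DKO replicate 1, 2 or 4 (limma adjusted p up to 0.0741), and the antagonist gene Sfrp4 fell 2.73-fold (log2 -1.45 ± 0.29, limma adjusted p = 0.0134). The targets Axin2 (-0.03 ± 0.19) and Sp5 (0.56 ± 0.24) were not called. Single members were called among 25 listed FGF genes (4%), 17 PDGF, KIT and VEGF genes (5.88%) and 21 retinoic acid genes (4.76%), beside Fgf9 and Kitl, which were listed with the Sertoli and pre-granulosa genes and called there. The share called over all genes was 2.13%. Fgf12 gave log2 1.12 ± 0.21, limma adjusted p = 0.00923, the ligand gene Pdgfc log2 1.18 ± 0.26, limma adjusted p = 0.024, and the retinaldehyde dehydrogenase gene Aldh1a3 log2 1.49 ± 0.21, limma adjusted p = 0.000656. Pdgfc lost its call when replicate 1 of either group or DKO replicate 3 was left out (limma adjusted p up to 0.0881). Beside the ligand gene Dhh, which was listed with the Sertoli genes and rose, 20 hedgehog genes were measured (median 0.17) and none was called, among them the Dhh targets Ptch1 (-0.19 ± 0.18), Gli1 (0.59 ± 0.33) and Hhip (0.19 ± 0.35). The Notch (22) and insulin-like growth factor (15) lists also had none, with Rbpj (log2 -0.39 ± 0.13, limma adjusted p = 0.166) and Igf2bp1 (log2 0.73 ± 0.24, limma adjusted p = 0.164) nearest.

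In the matrix, Col8a1 was the single member called of 35 collagens (2.86%, beside 2.13% of all genes, median 0.05), and Col8a2, which pairs with it in type VIII collagen, gave 0.33 ± 0.19. Of 40 laminins and other matrix genes, 3 rose and 3 fell (15%, beside 2.13% of all genes, median 0.12). Bcan, which encodes the brain proteoglycan brevican, read 21.4, 41.8, 30.9 and 22.1 in Control and 446, 326, 216 and 287 in DKO. Bcan was higher in every DKO ovary and rose 7.32-fold (log2 2.87 ± 0.32, limma adjusted p = 9.24e-05), although a dimmer probe set gave 0.43. Lama5, a laminin chain gene of mature basement membranes, rose 2.01-fold (log2 1.00 ± 0.19, limma adjusted p = 0.00753), and the fibulin gene Fbln2 rose by 1.29 ± 0.31 with overlapping groups and a call lost in 10 of 16 such fits. Thbs1 and Thbs2 fell as above, and Lama1, an early laminin chain gene, fell 1.56-fold (log2 -0.64 ± 0.15, limma adjusted p = 0.0363), a call lost in 7 of 16 fits. None of 20 matrix proteases and inhibitors was called (1 fell without Control replicate 4), with Mmp11 nearest (log2 -0.64 ± 0.20, limma adjusted p = 0.135).

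Among 39 junction and adhesion genes 1 rose and 4 fell (12.8%, beside 2.13% of all genes, median 0.11, and -0.02 without Control replicate 4). The popeye genes Bves and Popdc3, which lie side by side and encode cAMP-binding membrane proteins, fell together, by at least 2.48-fold (fitted log2 -1.53 ± 0.24, limma adjusted p = 0.00208) and 3.02-fold (log2 -1.59 ± 0.27, limma adjusted p = 0.004). Clstn2 fell (log2 -2.02 ± 0.16, limma adjusted p = 3.72e-06), as did the laminin receptor gene Itga6 (log2 -0.53 ± 0.11, limma adjusted p = 0.013), and L1cam rose (log2 1.04 ± 0.23, limma adjusted p = 0.0234, lost in 5 of 16 fits). Of 31 guidance genes (9.68% called, beside 2.13% of all genes), Ntn4 (log2 -1.37 ± 0.24, limma adjusted p = 0.00504) and Robo1 (log2 -0.77 ± 0.16, limma adjusted p = 0.0176) fell and Epha4 rose (log2 0.73 ± 0.17, limma adjusted p = 0.0392, lost in 10 of 16 fits). Robo1 lost its call without Control replicate 2 or 3 or DKO replicate 4.

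Cdkn1a, the CDK inhibitor p21, read 285, 367, 257 and 290.2 in Control and 1537, 871, 1626 and 1292 in DKO. Cdkn1a was higher in every DKO ovary and rose 4.18-fold (log2 2.06 ± 0.22, limma adjusted p = 5.89e-05), and a second probe set gave 2.00. Of 28 cell cycle genes (3.57% called, beside 2.13% of all genes), Ccnd1, which encodes cyclin D1, rose (log2 0.94 ± 0.21, limma adjusted p = 0.0307), a call lost in 6 of 16 fits without a Control or DKO ovary, and the list's median was 0.01. Control replicate 4 stood at a mean level of 11.23 in this list, against 10.21 to 10.32 in the other Control ovaries, and without it the median was 0.25 and 0 members were called. The stress list (26 genes, median -0.01) had no member called, with Gadd45a nearest (log2 -0.73 ± 0.22, limma adjusted p = 0.112).

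The remaining large rises had varied roles. Ecrg4, a secreted peptide gene, read 154, 419, 265 and 318 in Control and 2568, 1077, 1495 and 1964 in DKO, and rose 5.91-fold (log2 2.56 ± 0.45, limma adjusted p = 0.00477). Bmerb1 ran from 153 to 289 in the Control ovaries and from 1213 to 1771 in the DKO ovaries and rose 5.79-fold (log2 2.53 ± 0.23, limma adjusted p = 1.65e-05). Prkg2 ran from 143 to 276 in the Control ovaries and from 912 to 1550.2 in the DKO ovaries (log2 2.40 ± 0.20, limma adjusted p = 5.55e-06). Efhd1, a mitochondrial calcium-binding protein gene, gave log2 2.13 ± 0.21, limma adjusted p = 2.41e-05, the riboflavin transporter gene Slc52a3 log2 2.15 ± 0.25, limma adjusted p = 0.000123 and Scrn1 log2 2.02 ± 0.27, limma adjusted p = 0.000517. Pipox, a peroxisomal oxidase gene, and Mpzl2, an adhesion gene, rose by 1.78 ± 0.33 and 1.78 ± 0.30. Cpa1, a pancreatic carboxypeptidase gene, and the channel gene Trpm3 were higher by at least 3.21-fold (fitted log2 1.98 ± 0.39, limma adjusted p = 0.0117) and at least 3.21-fold (fitted log2 1.80 ± 0.36, limma adjusted p = 0.0128), and Trpm3 missed the threshold without DKO replicate 1 (limma adjusted p = 0.0510).

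Germ cell and most other cell type genes gave no calls. Of 18 oocyte genes (median -0.07) and 25 germ cell and meiosis genes (median -0.04) 0 were called at the limma adjusted threshold, with Sohlh1 (log2 -0.39 ± 0.24, limma adjusted p = 0.569) and Rad51c (log2 0.38 ± 0.18, limma adjusted p = 0.415) nearest. Without Control replicate 4 these medians were -0.29 and -0.16, and without Control replicate 1 they were 0.10 and 0.10, again with 0 called. Endothelial (15), macrophage (17), surface epithelium (15) and Schwann (9) genes also had none, with medians of -0.01, -0.03, -0.06 and -0.06, of which the macrophage and Schwann medians became 0.09 and 0.05 without Control replicate 4. Krt18, a keratin gene of the surface epithelium, stood nearest among them (log2 -0.76 ± 0.20, limma adjusted p = 0.0638). Mfap5, a fibrillar matrix gene, fell (log2 -1.51 ± 0.25, limma adjusted p = 0.00301) as the member called of 20 stroma genes (5%, beside 2.13% of all genes). In 9 erythroid genes the median of -1.07 became 0.07 without Control replicate 4. Adrenal-like genes were at 0 calls apart from Nr0b1 (16.7% of 6 measured, beside 2.13% of all genes), and the adrenal enzyme genes Cyp11b1 (0.04 ± 0.29) and Cyp21a1 (0.62 ± 0.46) did not pass.

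**Figure D4:**
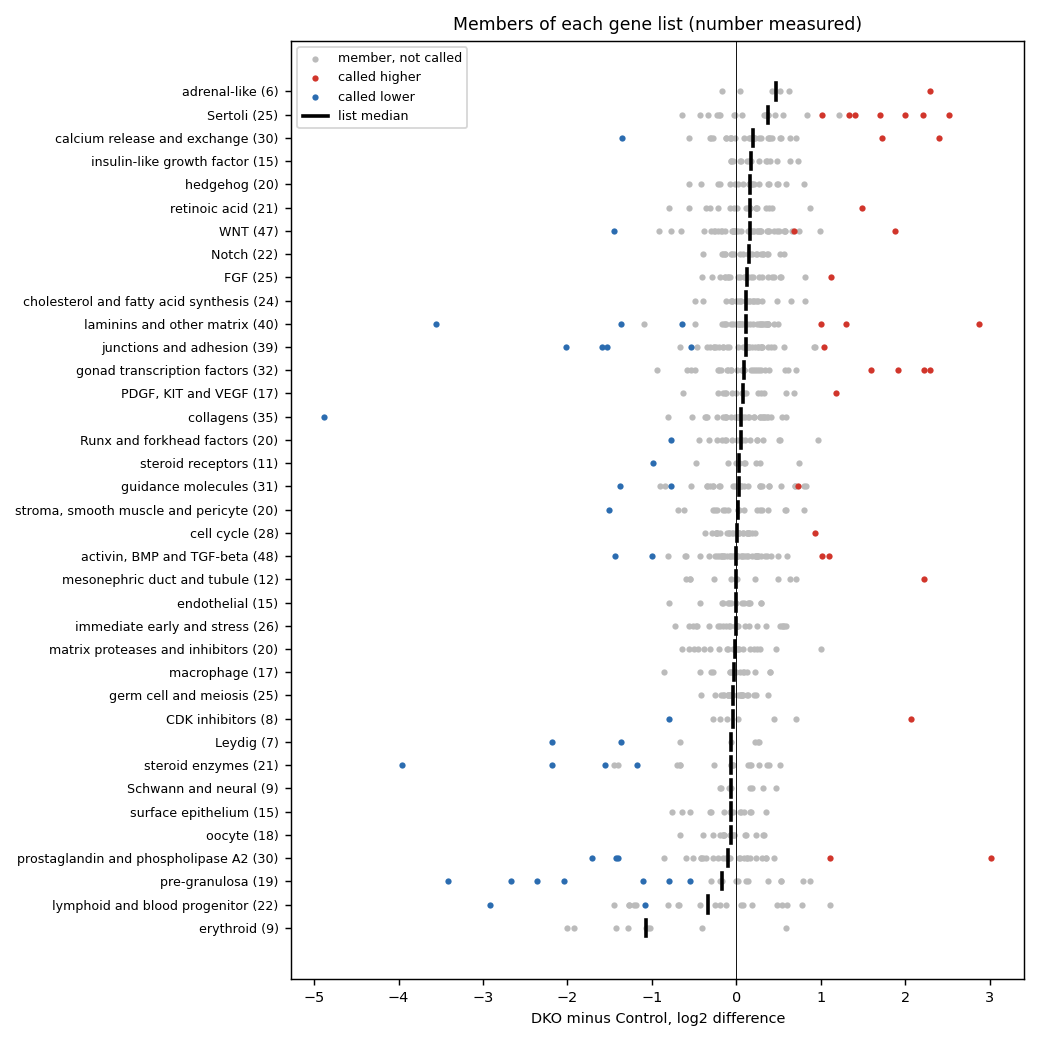
Log2 difference between DKO and Control for every measured member of each gene list, with the number measured in brackets, red for members called higher, blue for members called lower, grey for members not called and a black bar for the list median. Sertoli genes hold 7 red points and pre-granulosa genes 7 blue ones, while Notch, oocyte and germ cell genes hold none, nor does the hedgehog list, from which Dhh is absent because it is drawn with the Sertoli genes.

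Genes called in DKO that neither single knockout changed clearly, with an unadjusted p of at least 0.05 in both Runx1 KO and Foxl2 KO against Control, numbered 29 (0.159% of all genes), 20 higher and 9 lower. The 3 comparisons share the Control arrays, so their values are given side by side as a description. The 29 had a median size of 0.97 on the log2 scale, 15 were under 2-fold and 4 were predicted genes. Among the 29, 5 of the 20 rises and 2 of the 9 falls lay beyond all 12 other arrays. Among all called genes, 38 of 232 rises and 10 of 156 falls did so. The choice of the 29 favours such a position, so these counts are a description. In 2 of the 29 the DKO and Control values overlapped. Tested directly over all genes, DKO differed from Runx1 KO in 6 of the 29 (180 of all genes) and from Foxl2 KO in 0 (11 of all genes) at a limma adjusted p under 0.05. At an unadjusted p under 0.05 these counts were 28 and 26. The 29 were chosen for a call in DKO without a clear change in either single knockout. That choice on the same arrays favours such differences, so the count of 6 and the counts of 28 and 26 are no support. At the limma adjusted threshold, a difference of DKO from both single knockouts was not called for any of the 29.

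Rerg, a RAS-related growth inhibitor gene, read 132, 95.9, 99.9 and 85.5 in Control and 15.1, 42.9, 36.1 and 27.1 in DKO, with 136, 64.9, 56.7 and 77.8 in Runx1 KO and 114, 77.2, 96.1 and 98.6 in Foxl2 KO. Every DKO ovary lay below the other 12, with log2 differences from Control of -1.39 ± 0.23 in DKO, -0.30 ± 0.23 in Runx1 KO and -0.08 ± 0.23 in Foxl2 KO. Hs3st1, a heparan sulfate sulfotransferase gene, read 432, 366, 322 and 302 in Control, 132, 203, 176 and 160.3 in DKO, 364, 356, 384 and 243 in Runx1 KO and 392, 263, 435 and 248 in Foxl2 KO. Hs3st1 was again lowest in the 4 DKO ovaries, at -1.02 ± 0.20 against -0.08 ± 0.20 in Runx1 KO and -0.11 ± 0.20 in Foxl2 KO. Cers4, a ceramide synthase gene added after its values were seen, was at 0.86 ± 0.15 in DKO against 0.15 ± 0.15 in Runx1 KO and 0.31 ± 0.15 in Foxl2 KO. These 3 genes, Hamp2 and 2 predicted genes made up the 6 for which DKO differed from Runx1 KO.

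The forkhead gene Foxp1 read 2461, 2734, 2615 and 2384 in Control and 1695, 1749, 1534 and 2013 in DKO, with 1989, 2162, 2048 and 2488 in Runx1 KO and 2293, 2394, 2192 and 2401 in Foxl2 KO. Foxp1 changed by -0.55 ± 0.11 in DKO against -0.23 ± 0.11 in Runx1 KO and -0.13 ± 0.11 in Foxl2 KO, and its 7 other probe sets gave -0.87 to -0.07. Its call was lost when DKO replicate 1, DKO replicate 3 or Control replicate 2 was left out (limma adjusted p up to 0.0603). Cdkn1b, the CDK inhibitor p27, read 3701, 5788, 6182 and 5582 in Control and 2777, 3536, 2113 and 3819.8 in DKO, where Control replicate 1 fell within the DKO range. Its difference was -0.80 ± 0.19 in DKO against -0.09 ± 0.19 in Runx1 KO and -0.37 ± 0.19 in Foxl2 KO, a second probe set gave -1.02, and the call was lost in 10 of 16 fits. The RNA-binding protein gene Rbm38 stood at -1.13 ± 0.27 in DKO, and at -0.85 (limma adjusted p = 0.0688) without Control replicate 4, its highest ovary at 384. Pcmtd2 (-0.63 ± 0.13), Slc35e2 (-0.63 ± 0.16) and Klhl2 (-0.65 ± 0.16) fell less, and Pilra, a receptor gene of myeloid cells, was lower by at least 1.53-fold. Of the 16 fits that left out 1 array, 15 lost the call of Slc35e2, 13 that of Klhl2 and 8 that of Pilra. The calls of Rbm38 and Pcmtd2 were lost in 4 and 1.

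Kcnj12, an inward rectifier potassium channel gene, read 7.70, 7.11, 6.52 and 2.80 in Control and 58.2, 16.1, 89.0 and 83.5 in DKO, so that the Control ovaries lay near the floor and DKO replicate 2 was the lowest of its group. Kcnj12 was higher by at least 1.74-fold in DKO. Papln, which encodes the matrix protein papilin, read 95.8, 129, 81.6 and 45.1 in Control and 132, 246, 222 and 281 in DKO, with log2 differences of 1.21 ± 0.26 in DKO, 0.39 ± 0.26 in Runx1 KO and 0.42 ± 0.26 in Foxl2 KO. Hamp2, a hepcidin gene whose close copy Hamp its probes may also read, was at 1.61 ± 0.38 in DKO against -0.54 ± 0.38 in Runx1 KO and 0.78 ± 0.38 in Foxl2 KO. Leaving out any of the 8 Control or DKO ovaries in turn ended its call (limma adjusted p up to 0.111), and a dim probe set at a level of 4.52 gave -0.16. Ppp1r1a, an inhibitor of protein phosphatase, was at 0.89 ± 0.18 against 0.27 ± 0.18 in Runx1 KO and 0.11 ± 0.18 in Foxl2 KO, and Rtn1, a reticulon gene of neural cells, at 0.93 ± 0.21 against 0.42 ± 0.21 in Runx1 KO and 0.16 ± 0.21 in Foxl2 KO. The acyltransferase gene Gpat3 (1.03 ± 0.22) and Rnf207 (1.01 ± 0.21) also rose, and Apoc4, Kcnk15 and Npy6r were higher by at least 1.26-fold, 1.26-fold and 1.12-fold over background. Aebp1, a gene of matrix-producing cells added after its values were seen, was at 0.69 ± 0.14 against 0.09 ± 0.14 in Runx1 KO and 0.25 ± 0.14 in Foxl2 KO. Of the 16 fits that left out 1 array, 14 lost the call of Apoc4, 12 that of Kcnk15 and 9 that of Npy6r. The call was lost in 5 for Papln, in 4 for Rnf207, Rtn1 and Ppp1r1a, and in 3 for Gpat3 and Aebp1.

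The edges of these rules were narrow. Kcnk15 was called at a limma adjusted p of 0.0495 and Myo6 missed at 0.0501. Gpat3 counted among the 29 with an unadjusted limma p of 0.0503 in Foxl2 KO, and Me2, with 0.0485 in Runx1 KO, did not. Without DKO replicate 1 the 29 became 14, of which 9 were the same genes. Without Control replicate 2 they became 16, and without DKO replicate 4 17. Without DKO replicate 3 they became 51, of which 15 were shared.

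**Figure D5:**
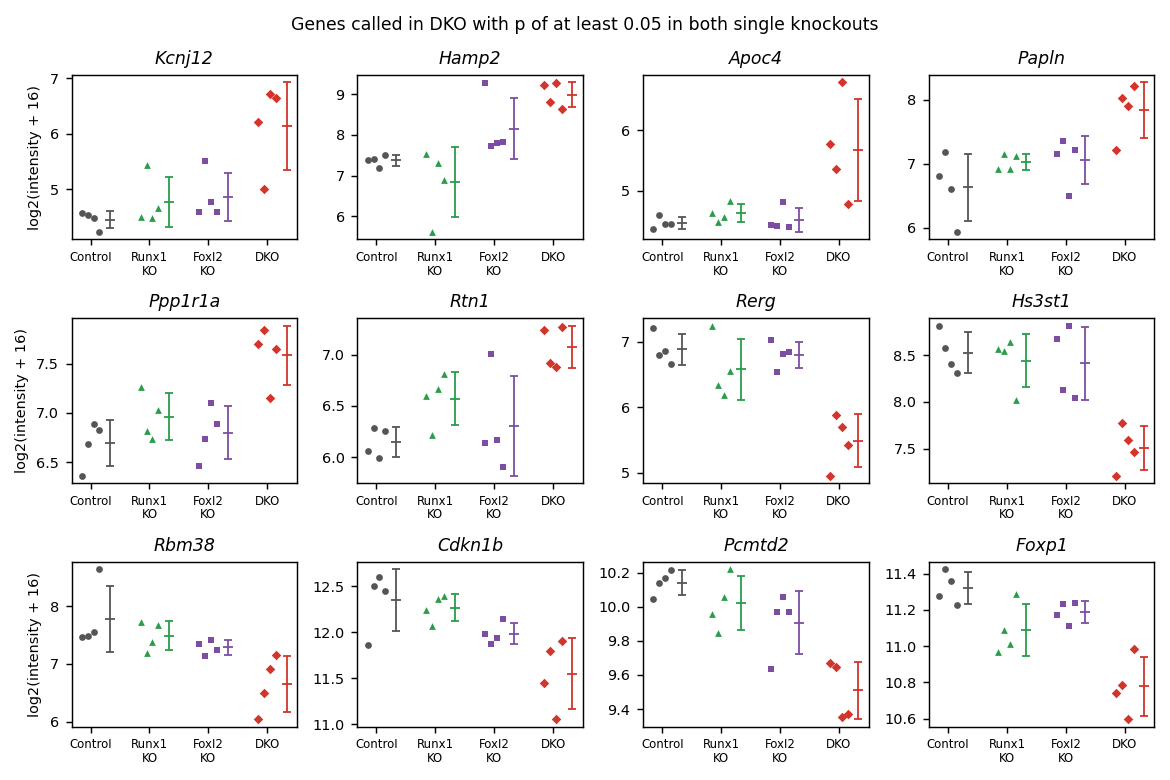
Level of 12 genes called in DKO with an unadjusted p of at least 0.05 in both single knockouts, as log2(intensity + 16), for the 4 ovaries of each genotype. Bars to the right of the points give the mean and SD. In Rerg and Hs3st1 the 4 DKO ovaries lie below the 12 others, whereas Cdkn1b, Foxp1 and Hamp2 also show single knockout ovaries near the DKO range.

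Of the 388 genes called in DKO, 182 were also called in the same direction in Foxl2 KO and 20 in Runx1 KO. Over all genes, 276 (1.52%) were called in Foxl2 KO and 22 (0.121%) in Runx1 KO. All were compared with the same Control arrays, so this overlap is a description. Several genes called in DKO had unlike values in the single knockouts against the same Control arrays. Ryr2 gave -2.58 ± 0.34 in Runx1 KO and -0.62 ± 0.34 in Foxl2 KO, Osr2 0.93 ± 0.29 in Runx1 KO and 0.15 ± 0.29 in Foxl2 KO, and Msx2 1.31 ± 0.23 in Runx1 KO and -0.11 ± 0.23 in Foxl2 KO. Among the genes with values of one sign in both, Fst gave -1.18 ± 0.34 in Runx1 KO and -1.15 ± 0.34 in Foxl2 KO and -2.67 ± 0.34 in DKO, Bmerb1 1.03 ± 0.23 in Runx1 KO and 1.74 ± 0.23 in Foxl2 KO, and Esr2 -0.29 ± 0.28 in Runx1 KO and -1.56 ± 0.28 in Foxl2 KO. DKO differed from Foxl2 KO, tested directly over all genes, for Ryr2, Nr5a1, Osr2 and Msx2 (limma adjusted p = 0.0215, 0.0215, 0.0388 and 0.00775), and for Fst the difference did not pass (limma adjusted p = 0.164). The study singled out genes on these arrays. Of the 14 measured 6 rose and 5 fell (78.6%, beside 2.13% of all genes), which is not independent evidence given how they were chosen. Itpr2, a calcium release channel gene, was among the 3 that did not pass (log2 -0.38 ± 0.19, limma adjusted p = 0.43), with Runx1 and Amh. Dimmer Itpr2 probe sets gave -0.68 to -0.17. Around Foxl2, 9 of 320 genes within 20 Mb were called (2.81%), and around Runx1 4 of 145 (2.76%), beside 2.13% of all genes.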

How the data were processed

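RNA from 1 newborn ovary per array was amplified, labelled with biotin and hybridised to Affymetrix mouse arrays. The deposited values are linear intensities per probe set, summarised by the authors with Affymetrix Expression Console 1.2 (submitters' processing notes) and scaled to the same mean after trimming 2% at each end. The summarisation algorithm is not given in the sources used here. Of 45101 probe sets, 64 were controls, 34945 matched 1 gene, 932 several and 9160 none. The probe set with the highest mean over 16 arrays stood for its gene, giving 18193 genes.

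From the deposited intensities, log2(intensity + 16) was taken, and limma 3.58.1 (lmFit and eBayes, R 4.3.3) was fitted to 4 group means over all 16 arrays, with two-sided tests adjusted by Benjamini-Hochberg over all genes. The study's methods tested log2 values from another program by one-way analysis of variance, which is an alternative here. Groups and replicate numbers came from the labels, each ovary being stated to be 1 biological replicate. Lists were described by counts of called members and their median, with no test of the list. The genes described were Foxl2 and Runx1, the 20 largest rises and falls without overlap between groups, genes the study named, called members of lists, the member nearest the threshold where none was called, and up to 10 genes each way that neither single knockout changed clearly. Predicted genes were counted only. Members and lists were chosen with earlier results of these data known, and the motile cilium, mast cell and desmosome lists and some single genes after their values were seen. A fold against a group below background was taken against background. Gene positions and promoter windows came from RefSeq (GRCm38.p6), in which 18031 genes had an entry. The method was tested on simulated data. Alternatives were other offsets and normalizations, other choices of probe set, other variance models, a fit of the 2 groups alone, replicate numbers as a block, the analysis of variance, and leaving out each array in turn.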

Additional observations from a re-analysis of the deposited data

Results flagged for a closer look

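In 322 groups of 4 ovaries examined, over the genes and list levels described, 26 had 1 ovary far from the other 3. Chance gives this in about 1 of 20 groups. The gap to the nearest ovary as a share of the group's range is given for each, and levels are log2(intensity + 16).

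Control replicate 4 stood high in the erythroid list (0.921 of the range, level 10.33), the lymphoid and blood progenitor list (0.832), the band 3 gene Slc4a1 of red cells (0.899, level 13.27), the lysozyme gene Lyz2 (0.864, level 11.13), Rbm38 (0.923), Slc35e2 (0.865) and Gadd45a (0.832). It stood low in Slc26a7 (0.895), Mmp11 (0.880), Ptger2 (0.840), Gpat3 (0.919), Ephx2 (0.904) and Tpsab1 (0.920). Control replicate 1 stood low in Nr0b1 (0.878), Sox9 (0.897), Thbs2 (0.932) and Tbx1 (0.920). Control replicate 3 stood low in Runx1t1 (0.944), and Control replicate 2 high in Popdc3 (0.849).

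Among the DKO ovaries, replicate 1 stood high in Nr3c2 (0.963) and the adrenal-like list (0.919, level 7.30) and low in Osr2 (0.868) and Nr6a1 (0.833). Replicate 3 stood high in Pax8 (0.833) and Morn1 (0.840), and replicate 4 low in the surface epithelium list (0.878, level 9.02 against 9.45 to 9.51).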

How the results depend on the processing

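The count of 388 called genes stayed between 272 (only the DKO and Control arrays) and 574 (every probe set on its own) under the other offsets, normalizations, probe set choices and variance models, with 53.9% to 61.1% of calls higher. The one-way analysis of variance with an unadjusted p and a 1.5-fold minimum gave 1087, 67.1% of them higher, and with adjustment 311. Leaving out 1 array gave 277 to 395 called genes, the lowest without DKO replicate 1. The 29 genes that neither single knockout changed clearly were less stable. They became 16 with no offset, 19 among genes above the median level, 392 under the unadjusted analysis of variance, 199 when defined as not called in either single knockout and 84 when also under 1.5-fold in both, and 14 to 51 when 1 array was left out. Replicate numbers did not pair the arrays, since 1 of 24 same-number pairs had a residual correlation above 0.1 (median -0.03). With the replicate number as a block 310 genes were called, 180 higher and 130 lower, and the 29 became 17.

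Of 130 called genes described by name, 88 were called in each fit that left out 1 array and 71 under all alternatives. Hamp2 changed sign, to -0.16, without probe sets shared between transcripts, which leaves its dim probe set. Runx1, not called anywhere, changed sign to 0.010 under quantile normalization and to 0.25 as the mean of its probe sets, and ran from -0.035 to 0.021 with 1 array left out. Psmb7, also not called, ran from -0.056 to 0.16 with 1 array left out. Array medians, probe sets near background and 4 ovaries per group limit what could be called, and 2250 genes with an unadjusted p under 0.05 include chance.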

Other observations

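Genes of motile cilia, the beating cilia of ducts and airways, appeared among the rises and were gathered into a list after their values were seen, so the counts are a description. Of 53 measured, 14 rose (26.4%, beside 1.28% of all genes) and 0 fell, with a median of 0.36 beside 0.04 over all genes. The rises numbered 10 without Control replicate 1, Control replicate 4, DKO replicate 1 or DKO replicate 2. Their mean level ran from 6.48 to 6.70 in the Control ovaries and from 6.97 to 7.07 in the DKO ovaries. That gap is favoured by the choice of the list and is no separate result. The same level ran from 6.92 to 7.03 in Foxl2 KO and from 6.71 to 6.84 in Runx1 KO ovaries. Ubxn10 ran from 132 to 182 in the Control ovaries and from 303 to 382 in the DKO ovaries (log2 1.13 ± 0.16, limma adjusted p = 0.000772), Cfap161 from 231 to 361 in the Control ovaries and from 616 to 899.7 in the DKO ovaries (log2 1.22 ± 0.21, limma adjusted p = 0.00401) and Morn1 from 70.4 to 144 in the Control ovaries and from 232 to 359 in the DKO ovaries (log2 1.38 ± 0.21, limma adjusted p = 0.00135). Dimmer probe sets gave 0.17, 0.41 and 0.30 for Morn1 and 0.56, 0.92 and 0.02 for Ubxn10. Foxj1, the master factor gene of motile cilia, gave 0.96 ± 0.39 and was not called (limma adjusted p = 0.302), and the axonemal genes Dnah5 (0.28) and Hydin (0.07) were not called either. Pax8 of the reproductive ducts rose in the same ovaries, and the part of ductal cells in these values was not tested.

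Mast cell genes, also listed after their values were seen, fell in 3 of 15 measured (20%, beside 0.857% of all genes), with a median of -0.41. They fell in 2 of 15, with a median of -0.51, without Control replicate 4, the count was also 2 without Control replicate 2 or 3 or DKO replicate 2, 3 or 4, and the median was -0.71 without DKO replicate 1. Slc18a2, the vesicular monoamine transporter gene, read 1208, 1136, 1157 and 1194 in Control and 329, 388, 341 and 418 in DKO (log2 -1.63 ± 0.19, limma adjusted p = 0.000123), the protease gene Cpa3 ran from 351 to 802 in the Control ovaries and from 134 to 303 in the DKO ovaries (log2 -1.65 ± 0.38, limma adjusted p = 0.0353), and the tryptase gene Tpsab1 was lower by at least 1.31-fold. Cpa3 lost its call in 6 of 16 fits without a Control or DKO ovary. The list's mean level ran from 7.15 to 7.71 in Control and from 6.64 to 6.88 in DKO ovaries, a gap favoured by the choice of the list. It ran from 6.31 to 7.10 in Runx1 KO and from 6.51 to 7.22 in Foxl2 KO ovaries.

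Desmosome genes Dsp (log2 1.11 ± 0.18, limma adjusted p = 0.00261) and Dsg2 (log2 0.94 ± 0.18, limma adjusted p = 0.00923) rose, of 14 measured (14.3%, beside 1.28% of all genes) in a list also made after values were seen. Further genes picked out after their values were seen were the growth factor receptor gene Egfr (log2 -1.60 ± 0.19, limma adjusted p = 0.000123), the guidance receptor gene Plxnc1 (log2 -1.89 ± 0.18, limma adjusted p = 1.68e-05), the epoxide hydrolase gene Ephx2 (log2 -1.91 ± 0.15, limma adjusted p = 3.88e-06) and Dach1 (log2 -1.62 ± 0.25, limma adjusted p = 0.00195), which fell. Dimmer Egfr probe sets gave -0.41, -1.24, -1.40, -1.11, 0.61 and 0.16. The angiotensin receptor gene Agtr1a rose (log2 1.19 ± 0.17, limma adjusted p = 0.00103), and its ligand gene Agt, near the floor in Control (4.29 to 9.05), was higher by at least 1.75-fold (fitted log2 1.64 ± 0.35, lost in 3 of 16 fits). The T-box gene Tbx1 rose 2.84-fold (limma adjusted p = 0.0340, lost in 5 of 16 fits). Speer4a and Speer4cos gave -1.85 ± 0.28 and -1.90 ± 0.29, with probes that may be shared across the family. Of 9160 probe sets with no gene given, 23 were called higher and 20 lower in a fit over 45037 probe sets. Of the 34945 probe sets matched to 1 gene, fitted apart from these, 574 were called, 329 higher and 245 lower.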
